A study of Homo sapiens with 2 samples.

Results

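Long noncoding RNAs and the host transcripts of small nucleolar RNAs (snoRNAs) were examined in parental and drug-selected A2058 cells, an established human melanoma line. The transcripts were chosen by a rule on their symbols. They were the LINC, SNHG, antisense (-AS) and divergent (-DT) symbols of the array's annotation together with MALAT1, NEAT1, GAS5, HOTAIR, PVT1, DANCR, EPB41L4A-AS1, TUG1 and MIAT, less LINC02543 and JARID2-AS1. This gave 487 of 20046 named genes, read by 583 of 47323 probes, and NEAT1 had no probe under that name. By name and known role, 24 probes of 19 genes belonged to snoRNA hosts and 6 probes of 5 genes to nuclear and chromatin-associated RNAs. A further 215 probes of 180 genes belonged to antisense RNAs, 38 probes of 33 genes to divergent transcripts and 300 probes of 250 genes to other intergenic (LINC) RNAs. In the current RefSeq annotation, 574 of the probes named a long noncoding RNA, 5 an antisense RNA and 1 (TUG1) a protein-coding gene, and 3 were not matched.

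RNA was hybridised on 1 Illumina bead array of parental A2058 cells, which had no drug selection, and on 1 array of the drug-selected cells derived from them by cycles of carmustine treatment and recovery, in which the concentration was raised to 100 uM. The labels give 6 months for this selection. The paper states that parental cells were kept in culture in parallel with it. Carmustine is an alkylating agent that crosslinks DNA. The surviving cells came from 1 line as 1 selected population, so drug exposure and the descent of the cells cannot be told apart. With 1 array in each group there was no replicate check and no test, and every difference below is one between these arrays, whose number limits how precise it is. In bulk RNA, fewer cells that express a transcript and less of it per cell cannot be told apart. Of 6 melanocyte lineage genes with a probe, 5 were detected, all on both arrays. In drug-selected cells 4 of 5 detected melanocyte lineage genes were lower (a fold under 0.5), TYR, MLANA, PMEL and MITF, beside 5.84% of all detected genes, and the lineage factor SOX10 gave a signal of 1684 against 2356. Of 15 marker genes of other cell types 8 were detected, 3 of them on the drug-selected array only. CD14, PECAM1 and LYZ were higher (a fold above 2) and DCN and LUM lower, beside 7.12% higher and 5.84% lower of all detected genes. The log2 differences of the 8 ran from -3.06 to 3.37. KRT5, KRT14, CDH1, PTPRC, CD3E, CDH5 and COL1A2 were not detected. The part of these markers in the values below was not tested.

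Long noncoding RNAs act in the nucleus and cytoplasm, and many are present at few copies per cell. Most human snoRNAs, which guide the chemical modification of ribosomal RNA, are cut from the introns of a host transcript after splicing. Some hosts encode ribosomal proteins or translation factors, while others, such as the SNHG genes, leave a spliced RNA with little or no coding capacity. Many hosts of both kinds begin with a terminal oligopyrimidine tract, a C followed by a run of C and T, which ties the use of their mRNA to growth signals, and several spliced noncoding hosts are removed by nonsense-mediated decay.

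The starts of 6 snoRNA hosts are shown because they carry this tract or, for EPB41L4A-AS1 and SNHG8, because their differences were among the largest of the group. Each line gives 30 bases before and 30 bases from the start listed in RefSeq (GRCh38.p14), in the direction of transcription, with a tract that opens at the start in capitals. The SNHG5 window lies at chr6:85678704-85678763 on the minus strand and SNHG32 at chr6:31834886-31834945 on the plus strand. SNHG4 lies at chr5:139274071-139274130 (plus), SNHG12 at chr1:28581844-28581903 (minus), EPB41L4A-AS1 at chr5:112160496-112160555 (plus) and SNHG8 at chr4:118278732-118278791 (plus).
SNHG5: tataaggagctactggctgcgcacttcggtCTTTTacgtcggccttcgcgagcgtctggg
SNHG32: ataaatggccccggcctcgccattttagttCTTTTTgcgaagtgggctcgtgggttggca
SNHG4: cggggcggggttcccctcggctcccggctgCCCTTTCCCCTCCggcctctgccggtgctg
SNHG12: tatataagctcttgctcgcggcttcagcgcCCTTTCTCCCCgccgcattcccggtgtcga
EPB41L4A-AS1: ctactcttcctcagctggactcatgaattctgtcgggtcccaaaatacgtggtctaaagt
SNHG8: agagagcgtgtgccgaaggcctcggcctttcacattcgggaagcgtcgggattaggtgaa

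A C at the listed start followed by 4 bases that were each C or T stood in 4 of the 16 noncoding hosts with a listed start (25%), namely the first 4 of those shown. It stood in 14 of 38 listed starts of the protein-coding snoRNA hosts (36.8%) and in 1429 of all 35116 listed starts (4.07%). Among the other transcripts it stood in 4 of 151 antisense, 2 of 29 divergent and 5 of 208 LINC starts. The start used in these cells may differ from the listed one, and the absence of a tract in EPB41L4A-AS1 and SNHG8 concerns only the listed position. In the wider window of 250 bases before to 50 after the start, read on both strands, the TATA box letters TATAAA stood in 12% of 408 windows of the transcripts studied and in 11.5% of all windows. The AP-1 letters TGANTCA stood in 8.33% against 7.71%, and the E-box letters CACGTG in 9.56% against 7.26%. None of these stood in the 8 windows of the genes that passed 2-fold.

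Few of these transcripts differed by more than 2-fold. A probe was called detected when its signal passed that of the control beads at a detection p-value under 0.05 on either array, and 224 of the 583 probes (38.4%) were, against 49.2% of all probes. After background correction and quantile normalization, a transcript was called higher where the fold of drug-selected over parental cells exceeded 2, and lower where it was under 0.5. By this rule 6 detected probes were higher and 2 lower, 3.57% of the 224, beside 10.9% of all 23307 detected probes (5.84% higher and 5.07% lower). Counted by gene, 6 of 202 were higher and 2 lower (3.96%), beside 13.0% of all 12832 detected genes (7.12% higher and 5.84% lower). The median log2 difference was 0.02, or -0.04 where probes detected on 1 array were set at their bound, against -0.003 for all detected probes. The middle 50% of the probes lay between -0.28 and 0.35.

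Most of the detected probes were dim, with a median log2 signal of 5.13 against 6.68 for all detected probes. At the same signal level the share past 2-fold was also below that of all probes. Under a log2 signal of 6 it was 4 of 164 probes (2.44%, all probes 8.17%), from 6 to 8 it was 3 of 34 (8.82%, all probes 15.1%), and from 8 upward 1 of 26 (3.85%, all probes 10.7%). Both arrays detected 132 of the probes, the parental array alone 32 and the drug-selected array alone 60. Of the 132, 5 were higher and 2 lower (5.30%), beside 10.3% of all probes detected on both (4.77% higher and 5.50% lower). Without an offset in the background correction, which spreads the folds of dim probes, the order turned, with 24.1% of these probes and 22.9% of all probes past 2-fold.

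**Figure D1:**
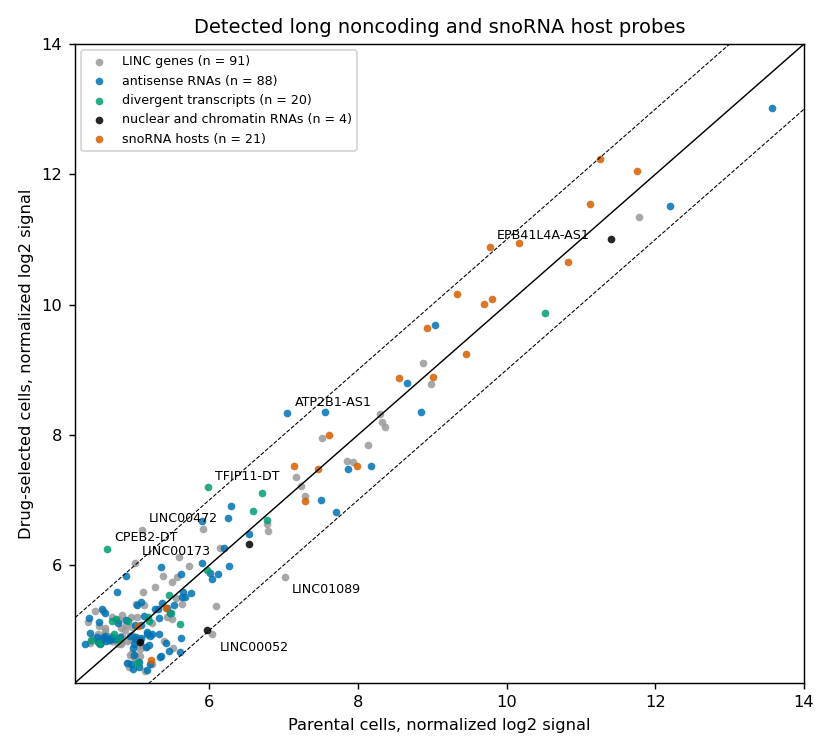
Normalized log2 signal of the 224 detected probes in parental cells (horizontal axis) and drug-selected cells (vertical axis), coloured by role, with the line of equal signal and dashed lines at 2-fold. Most points lie near the lower left within the dashed lines, the 8 probes past 2-fold are named, and most snoRNA hosts lie in the upper part of the range.

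The snoRNA hosts had the highest median log2 signal of the 5 groups, 9.29, and the highest median difference. Of 24 host probes 21 were detected, 20 of them on both arrays, and their median log2 difference was 0.30, with 14 of 21 above 0. Only 1 probe passed 2-fold (4.76%, beside 10.9% of all probes). EPB41L4A-AS1 (chr5:112160526-112162501), which carries SNORA13 in an intron, had a signal of 779 in parental cells against 2213 after drug selection and was 2.17-fold higher after normalization. It stayed past 2-fold under all 7 other ways of correcting and scaling the signals, with log2 differences from 1.09 to 1.54.

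SNHG5, the host of SNORD50A and SNORD50B, lay at the threshold. One of its probes gave 2125 and 5588 (log2 difference 0.98) and the other 1023 and 2293 (0.77). The first passed 2-fold in the authors' normalized values (1.04), with scaling to the median (1.27) and with no normalization between arrays (1.41). Both snoRNAs had probes, and neither was detected. SNHG8, the host of SNORA24, gave 587 and 1344 (0.83). SNHG7, which holds SNORA17A and SNORA17B, was read by 3 probes that did not move together, with 449.6 and 952 (0.71), 196 and 330.4 (0.38), and 162 and 184 (-0.29). A second tier of hosts lay between 0.28 and 0.42. In it SNHG6 gave 1943 and 3404 (0.42), SNHG4 149 and 251 (0.39), and SNHG9 352 and 573 (0.32). SNHG15 gave 796 and 1277 (0.28) with one probe and 739.5 and 1222 (0.32) with the other, and SNHG32 gave 2983 and 4954 (0.30). The second SNHG32 probe was not detected.

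The other hosts differed by 0.02 or less or lay below 0 within 2-fold. SNHG3 gave 59.2 and 73.8 (0.02), SNHG12 179 and 242 (0.01), and SNHG10 67.1 and 82.7 (-0.08). SNHG17 gave 474 and 579 (-0.11), and SNHG1, which holds a cluster of box C/D snoRNAs, gave 1571 and 1891 (-0.16). These raw signals were higher on the drug-selected array, which was brighter as a whole, with a median signal of 63.1 against 52.5. DANCR, a host of SNORA26 known for keeping epidermal progenitors undifferentiated, gave 626 and 727 (-0.21), and SNHG11 244 and 251 (-0.45). GAS5, named for its accumulation in growth-arrested cells, was detected in parental cells only, at 62.5 against 58.4 (-0.66, which is not a measured difference). SNHG20 and SNHG28 were not detected. Relative to all probes, the median of the host group stayed above 0 in all 12 alternative settings, from 0.16 to 0.38.

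**Figure D2:**
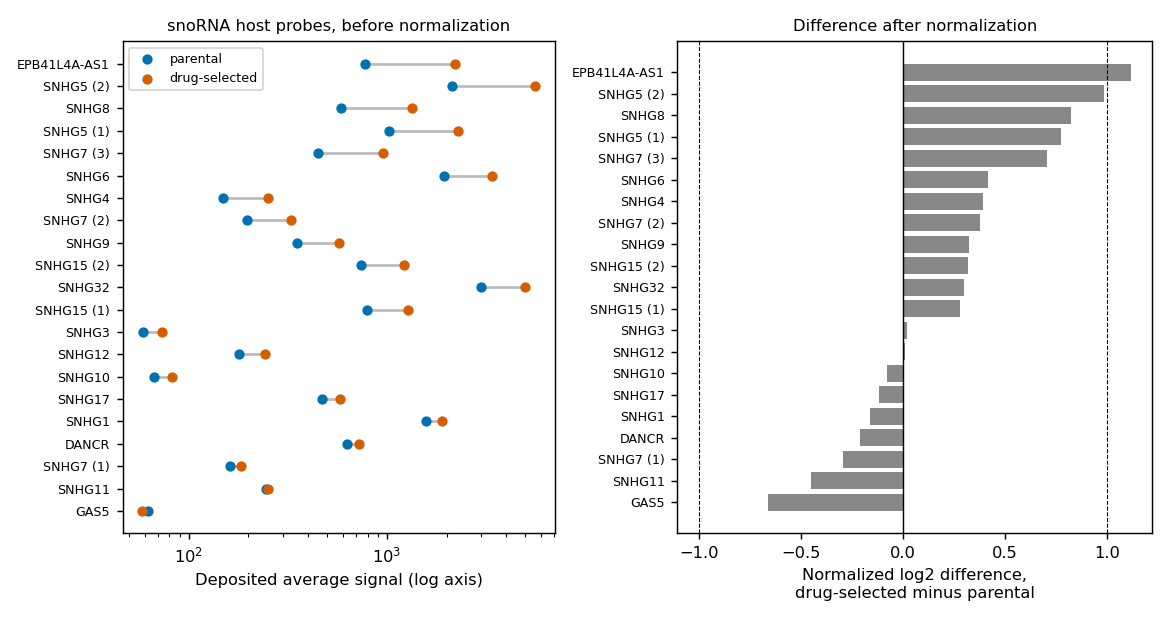
Left, deposited average signal of each detected snoRNA host probe in parental and drug-selected cells on a log axis; numbers in brackets separate probes of 1 gene. Right, the log2 difference after normalization with dashed lines at 2-fold, where EPB41L4A-AS1 passes the line at 1.12 and GAS5, detected in parental cells only, is lowest at -0.66.

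The snoRNAs inside these hosts were measured by their own probes. RefSeq places 50 snoRNA genes within 19 of the transcripts studied, and 22 probes of 21 of these snoRNAs were detected together with their host, in 12 hosts. In 17 of these pairs host and snoRNA were each detected on both arrays. In 16 of the 17 the log2 difference of the snoRNA probe lay below that of the host's strongest probe, by small gaps in several hosts. Over all 22, with those detected on 1 array, it did in 20, and 18 of the 22 snoRNA probes lay below 0, with a median of -0.25. SNORA13 gave 94.2 and 112 (-0.22) while its host EPB41L4A-AS1 stood at 1.12. In SNHG32 both snoRNAs passed 2-fold, with SNORD48 at 164 and 106 (-1.39) and SNORD52 at 200.2 and 152 (-1.0), while the host stood at 0.30. SNORD52 lay at the threshold, and SNORD48 was within 2-fold with no normalization between arrays (-0.96). In GAS5, SNORD80 gave 515 and 359 (-1.01) and SNORD76 gave 115 and 97.7 (-0.92), while the host was not above background after drug selection, so its order against them was not measured.

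Several of these gaps were smaller than the SD of 0.33 between probes of the same gene. In SNHG8 (0.83) SNORA24 gave 172 and 311 (0.51), and in SNHG12 (0.01) SNORA61 stood at -0.26 and SNORD99 at -0.11. In SNHG3, whose host signal was near background, the host stood at 0.02 and its snoRNA probes from -0.22 to -0.16. SNORA17A in SNHG7 stood at -0.25, below the strongest host probe (0.71) but above the one at -0.29. The snoRNA probe above its host on both arrays was SNORD25 in SNHG1, at 0.08 against -0.16. SNORA78 in SNHG9 stood at 0.40 against 0.32, but was not above background in parental cells (46.0, detection p-value 0.43). The other SNHG1 snoRNAs, SNORD22, SNORD31 and SNORD30, stood at -0.51, -0.47 and -0.21. The share below the host dropped with an offset of 0, to 17 of 22, and with no detection filter, to 24 of 40. The labelling kit primes from poly(A) tails, which mature snoRNAs lack, and which RNA these probes read was not tested.

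**Figure D3:**
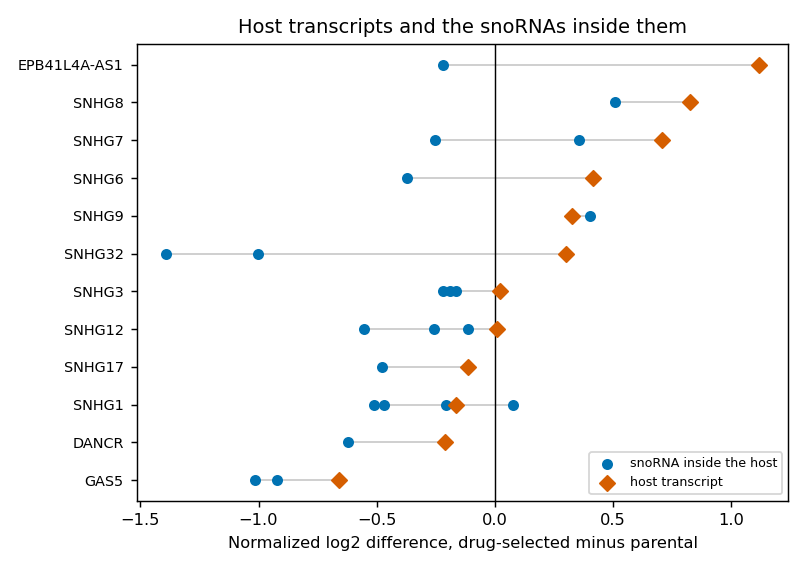
Normalized log2 difference, drug-selected minus parental, of 12 host transcripts (diamonds) and of the detected snoRNA probes inside them (circles), joined by host. Circles lie to the left of their diamond except for SNORA78 in SNHG9 and SNORD25 in SNHG1. GAS5, SNORA78, SNORA17B in SNHG7 and SNORA71A in SNHG17 were detected on 1 array only, so their places are not measured differences.

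Most detected snoRNA probes, inside these hosts or elsewhere, also lay below 0. Of 280 such probes 139 were detected, 1 was higher and 10 lower (7.91%, beside 10.9% of all probes, 5.84% higher and 5.07% lower), and the median was -0.38 with 106 of 139 below 0. Relative to all probes it ranged from -0.48 to -0.04 over the alternatives. SNORD21 gave 163 and 93.1 and was 3.18-fold lower, SNORD56 gave 371 and 199 and was 2.83-fold lower, and SNORA50C gave 83.3 and 185 and was 2.03-fold higher. The last was within 2-fold with an offset of 50 (0.74), no background correction (0.74) and the authors' values (0.75). The proteins that bind snoRNAs lay on the other side, with 16 of 19 probes above 0 and a median of 0.53. Of these, SNU13, a core protein of box C/D particles, gave 709 and 1875 and was 2.03-fold higher, and no probe was lower. It lay within 2-fold with an offset of 50 or no background correction (0.99 in both) and over the median of its probes (0.69). GAR1, of the box H/ACA particles, gave 1135 and 2707 (0.87), and the 2'-O-methyltransferase FBL gave 669 and 1394 (0.68).

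The 43 detected probes of protein-coding snoRNA hosts had a median of 0.29, close to the 0.30 of the noncoding hosts, with 2 higher and none lower (4.65%, beside 10.9% of all probes). RPL13A, a ribosomal protein gene with several snoRNAs, gave 2723 and 7571 and was 2.15-fold higher. RPL13 gave 750.0 and 1930.4 (0.98), while IPO7 gave 199 and 168 (-0.80). The 11 detected probes of nonsense-mediated decay factors lay within 2-fold, with a median of 0.17. UPF1, the central helicase of this pathway, gave 249 and 315 (-0.10).

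Among the nuclear and chromatin-associated RNAs no probe passed 2-fold, and 4 of 6 were detected. MALAT1, an RNA of nuclear speckles, was not detected, at 44.8 and 43.3 with detection p-values of 0.50 and 0.90. MIAT was not detected either, at 52.0 and 57.8. TUG1, which is widely expressed and linked to chromatin regulation, gave 2375 and 2396 (-0.40). PVT1, the neighbour of the MYC oncogene, gave 108 and 129 (-0.21). HOTAIR, an antisense RNA of the HOXC cluster known for binding the repressive complex PRC2, was read by 2 probes, at 82.8 and 71.95 (-0.97) and at 59.7 and 66.7 (-0.25). The first passed 2-fold with scaling to the 75th percentile (-1.05) and an offset of 0 (-1.54), and stood at -0.55 with an offset of 50.

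The genes that work with these RNAs form short lists, in which the share of all probes past 2-fold, 10.9%, amounts to few calls. Of 8 detected HOXC probes none passed, and their median was -0.15. HOXC6 gave 713 and 1168 (0.31) and HOXC4 gave 261 and 306 (-0.22). None of 11 PRC2 probes passed, with a median of -0.18 and the catalytic subunit EZH2 at 329 and 349 (-0.37). None of 16 nuclear speckle probes passed, with a median of -0.34 and SRSF3, a splicing factor, at 808 and 643 (-0.76). Of 21 paraspeckle protein probes 1 was lower. This was TARDBP, which encodes the RNA-binding protein TDP-43, at 414 and 248, 2.45-fold lower.

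Of 215 antisense probes 88 were detected and 1 was higher, 1.14% beside 10.9% of all probes, with a median of -0.10. ATP2B1-AS1 (chr12:89708955-89711952) gave 142 in parental cells and 411 after drug selection and was 2.44-fold higher. It too passed 2-fold under all 7 other ways of correcting and scaling, with log2 differences from 1.1 to 1.73. Its partner ATP2B1, which encodes a plasma membrane calcium pump, gave 379 and 327 (-0.70). Both genes overlap by 412 bases on opposite strands, and their listed starts lie 411 bases apart.

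Several antisense probes had strong signals or differences just within 2-fold, and some are named here after their values were seen. RAMP2-AS1 gave 10042 and 9470 (-0.54) and ITPK1-AS1 4004 and 3347 (-0.68). OIP5-AS1, known in zebrafish as cyrano, gave 276 and 249 (-0.66), and NFYC-AS1 gave 207 and 167 (-0.89). On the other side CD27-AS1 gave 189 and 414 (0.80) and MRPL20-AS1 485 and 984 (0.65). VPS9D1-AS1 gave 56.3 and 103 (0.95), with the parental signal not well above background.

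Divergent transcripts start near a protein-coding gene and run away from it. Of 38 probes 20 were detected and 2 were higher, 10% beside 10.9% of all probes. TFIP11-DT (chr22:26512532-26514568) gave 83.5 and 206 and was 2.32-fold higher. Its neighbour TFIP11, a factor of spliceosome disassembly whose listed start lies 59 bases away, had no probe under that name. CPEB2-DT (chr4:14909961-15002045) gave 50.8, not well above background, and 125, and was at least 2.58-fold higher. Its other probe gave 71.8 and 74.9 (-0.51), so the probes of this gene disagreed. The neighbour CPEB2, which encodes a regulator of mRNA polyadenylation, gave 403 and 445 (-0.29). The strongest divergent signal was that of PAXIP1-DT, at 1279 and 1111 (-0.64), also named after its values were seen.

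Antisense and divergent RNAs were set against the protein-coding genes they are named after. In 80 pairs both were detected on at least 1 array. Of these, 42 differed in the same direction (15 both above 0, 27 both below) and 38 in opposite directions. The counts and the correlations below include RNAs detected on 1 array only, whose directions are not measured. Some change sign at their bound, as DLG5-AS1 does, from a fold of 1.38 to 0.94. In 3 pairs the noncoding RNA passed 2-fold, in 9 the partner did, beside 13.0% of all genes, and in none did both. With a 1.5-fold threshold both passed in 7 pairs, and with an offset of 0 in 4. Across the 80 pairs Pearson's r was 0.06 and Spearman's rho 0.07, as a description of points that share the same arrays. Of 61 pairs that could be placed, all lay on opposite strands. In 22 the listed starts lay head to head, 10 of 11 divergent and 12 of 50 antisense pairs. This was counted at any distance, as in RB1-DT with starts 172748 bases apart. Pairs that overlap from their starts, such as ATP2B1-AS1 and CNN3-DT with their partners, were not counted, so the 22 are no count of shared start regions. EPB41L4A, within which all 1976 bases of EPB41L4A-AS1 lie, gave 68.5 and 77.5 (-0.29) while the antisense RNA was higher.

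Partners past 2-fold, named after their values were seen, stood beside antisense RNAs within 2-fold. SLC26A4, an anion exchanger, gave 1521 and 347 and was 6.47-fold lower, with SLC26A4-AS1 at 72.1 and 68.5 (-0.74). ST7 gave 1711 and 564 and was 4.26-fold lower, with ST7-AS1 at 64.5 and 82.5 (0.03). In the other direction ITPK1, an inositol phosphate kinase, gave 228 and 611 and was 2.15-fold higher, with ITPK1-AS1 at -0.68. GPC1, a cell surface proteoglycan, was at least 2.84-fold higher, with GPC1-AS1 at 60.9 and 78.8 (0.09). The signals of SLC26A4-AS1, ST7-AS1 and GPC1-AS1 were near background, which limits the folds they can show. Where each probe lies relative to the overlap of a pair was not examined.

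**Figure D4:**
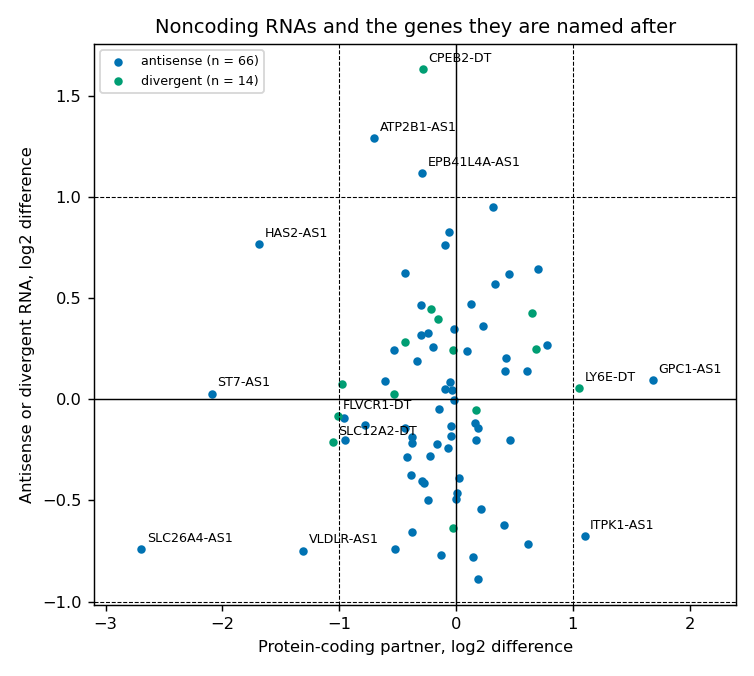
Log2 difference of the protein-coding partner (horizontal axis) and of its antisense or divergent RNA (vertical axis) in 80 pairs with both detected, with dashed lines at 2-fold. The points fill all 4 quadrants, and none lies past a dashed line on both axes.

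Of 300 LINC probes 91 were detected, 2 were higher and 2 lower, 4.4% beside 10.9% of all probes, and the median was 0.08, or -0.03 with bounds. LINC00472 (chr6:71407864-71420745), which has been described as a tumour suppressor in breast cancer, gave 60.3 and 145 and was 2.74-fold higher. LINC00173 (chr12:116533422-116536513) gave 58.5 and 113 and was 2.05-fold higher, while its other probe gave 54.5 and 76.6 (0.36). LINC01089 (chr12:121795267-121802946), also called LIMT for its inhibition of mammary tumour metastasis, gave 139.7 and 102 and was 2.30-fold lower. Its second detected probe gave 87.7 and 83.9 (-0.72).

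LINC00052 (chr15:87576929-87579686) gave 85.7 and 70.1 and was 2.15-fold lower, while its other probe, detected in drug-selected cells only, stood at 0.22. LINC01018 had the strongest LINC signal, 3016 and 3004 (-0.42), and its second probe stood at 0.33. LINC genes with signals well above background, named after their values were seen, also stood within 2-fold. LINC00938 gave 433 and 669 (0.24), LINC00221 185 and 324 (0.43), and LINC00339 464 and 539 (-0.20) with the first of its 3 probes.

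The 6 transcripts past 2-fold other than EPB41L4A-AS1 and ATP2B1-AS1 were within 2-fold in the authors' normalized values and with a larger offset or no background correction. TFIP11-DT and LINC00472 passed in 4 of 7 settings, CPEB2-DT and LINC00173 in 3, and LINC01089 and LINC00052 in 2. As a measure of spread, log2 differences of probes for the same gene had an SD of 0.33 over the 11 noncoding genes with several probes detected on both arrays, against 0.31 over 2892 genes. Of 20 noncoding genes with more than 1 detected probe, 13 had all probes on the same side of 0. Of the 224 detected probes, 133 lay on a current RefSeq transcript record of their gene.

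**Figure D5:**
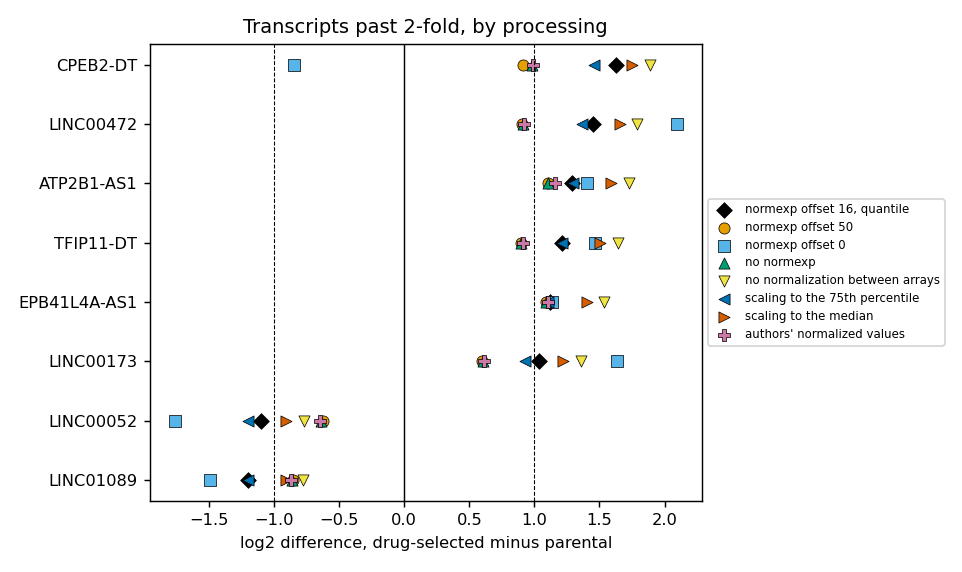
Log2 difference of the 8 genes past 2-fold in the main setting (black diamonds) and under 7 other ways of correcting and scaling the signals, with dashed lines at 2-fold. ATP2B1-AS1 and EPB41L4A-AS1 stay past the line throughout, and CPEB2-DT turns to -0.85 without an offset, where its other probe represents the gene.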

How the data were processed

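RNA of parental and drug-selected A2058 cells was labelled with biotin after amplification from poly(A) tails and hybridised to Illumina bead arrays of 47323 probes. The authors deposited 2 tables, one with the average bead intensity per probe (linear scale) and its detection p-value, the other with normalized intensity whose medians were 58.1 and 58.12. The sources used here do not name the normalization. The methods name a background subtraction, but the lowest deposited intensity was 25.7 for parental and 30.5 for drug-selected cells. Their fold, of suspended against adherent cells, corresponds to neither label, so drug-selected over parental was computed. The labels do not say whether cells were grown suspended or adherent, so a difference in culture form could not be told apart from selection. Groups came from the sample labels.

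Intensities were background corrected with limma 3.58.1 in R 4.3.3 (normexp from the detection p-values, offset 16), quantile normalized and log2 transformed. Probes were kept at a detection p under 0.05 on either array, which held for 42.5% of probes in parental and 45.6% in drug-selected cells. Over probes detected on both arrays the log2 signals had r = 0.94. Of several detected probes, the one with the strongest mean log2 signal stood for its gene. For probes detected on 1 array only, a fold given as "at least" is a lower bound. Its dim side was set at its own signal or, if that was lower, at the weakest detected signal of the array (log2 of 4.89 for parental and 4.80 for drug-selected cells). The calls, the shares past 2-fold and the log2 differences used the normalized signals without this bound, except where a bound is named.

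Symbols came from the platform annotation, which gives 1 symbol to 30113 probes, several to 8 and none to 17210. Of the 583 probes studied, 580 were matched by gene identifier to RefSeq on GRCh38.p14, which also gave positions and starts. The members and gene lists were chosen with earlier results of these data known. The text names each gene past 2-fold, the detected SNHG genes, the RNAs selected by name, the 5 genes with the strongest probe signals, the partners of those past 2-fold and up to 3 genes past 2-fold in each direction of each related list, and any other is given as named after its values were seen or as a marker or reference member of its list. Alternatives were normexp offsets of 50 and 0, no normexp, scaling by the 75th percentile, by the median or not at all between arrays, the authors' normalized intensity, other detection filters, 1.5-fold and 3-fold thresholds and a gene's median probe. The processing was tried on simulated differences, which were placed only in probes with strong signals. How it treats dim probes, which are most of those studied, was therefore not tested in this way. Python 3.11.15 with pandas 2.3.3, numpy 2.4.6 and matplotlib 3.10.9 was used for counts and figures.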

Additional observations from a re-analysis of the deposited data

How the results depend on the processing

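The counts past 2-fold rested on the handling of dim probes. Against 6 probes higher and 2 lower (6 and 2 genes), a normexp offset of 50 gave 2 and 0 probes (2 and 0 genes), no normexp gave 2 and 0 (2 and 0 genes), and an offset of 0 gave 27 and 27 (25 and 25 genes). The authors' normalized values gave 3 and 0 (3 and 0 genes). Without normalization between the arrays the median of all detected probes moved to 0.35, and 19 probes were higher and 0 lower (18 and 0 genes). Scaling to the median gave 12 and 0 (11 and 0 genes), and scaling to the 75th percentile gave 6 lower probes and 6 lower genes. A 1.5-fold threshold gave 25 and 21 (23 and 20 genes), a 3-fold threshold 1 and 0 (1 and 0 genes), and taking each gene's median probe 0 lower genes. In 12 of 13 settings the share of these probes past the threshold lay below that of all probes.

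The number of detected probes was 147 at a detection p under 0.01, 132 on both arrays and 583 with no filter, against 224. With no filter 103 of 201 pairs differed in the same direction, against 42 of 80, and the median of snoRNA genes relative to all probes was -0.043, against -0.38. CPEB2-DT turned to -0.85 with an offset of 0 and to -0.51 among probes detected on both arrays, since its other probe then represented the gene. The group medians of the snoRNA hosts, the nuclear RNAs, the divergent transcripts and the snoRNA-binding proteins kept their sign relative to all probes in all 12 alternatives run on them.

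No paired analysis was possible because each group has 1 array, and no array was left out. Signals near background limit most of the noncoding probes, and a probe that was not detected says only that its signal was not well above that of the control beads.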
